A study of Mus musculus with 15 samples.

Results

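Rpl18 belongs to the large (60S) subunit of the ribosome. It was depleted with a small interfering RNA (siRNA) in the mouse embryonic stem cell line E14, and messenger RNA was sequenced. The siRpl18 libraries were compared with libraries of cells that received a non-targeting siRNA (siNT). Members were the 6 of the 15 libraries of the series whose titles name siRpl18 or siNT, and the 12199 of 24819 listed genes that reached 1 FPKM in 2 or more of those 6 libraries. FPKM are sequenced fragments scaled for transcript length and library size. The other 9 libraries came from knockdowns of Rpl11, Rpl14 and Rpl23, which also encode 60S proteins. Every group was cultured in serum with leukemia inhibitory factor (LIF) on gelatin, and transfected with its siRNA by DharmaFECT. The labels name no altered allele in any group. The titles give 48 h, whereas the treatment protocol gives 3 days of knockdown, and which applies was not settled. The cells were 1 line, and the labels do not say whether an siRNA was 1 sequence or a pool. Nor is it stated that the replicates came from separate cultures; if they did not, the p-values reflect technical spread alone.

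Ribosomal proteins are made in step with ribosomal RNA and are assembled in the nucleolus. When 60S assembly falters, the 5S ribonucleoprotein, which holds Rpl5, Rpl11 and 5S ribosomal RNA, can bind Mdm2, the ubiquitin ligase that keeps the transcription factor p53 low, and p53 then rises and switches on genes of arrest, death and metabolism. Embryonic stem cells in serum and LIF move between a naive state, a formative state closer to differentiation, and a rare state in which genes of the 2-cell embryo are on.

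Replicates 1 and 2 of each group were in 1 table and entered the tests (n = 2 each). The third library of a group stood in another table with its own normalization, so it entered no test of the main fit. It counted toward the filter of 1 FPKM and was otherwise read only for the direction and size of differences inside its own table. Differences are siRpl18 minus siNT on the log2(FPKM + 1) scale, as estimate ± SE from limma, and "rose" and "fell" mean a Benjamini-Hochberg adjusted p under 0.05 over all genes tested. That scale understates the change of genes with low FPKM, and counts of 2-fold changes are taken on it. FPKM carry no total counts, so the absolute depth is unknown. Relative depth was estimated from low values, where ratios between 2 libraries should cluster at the ratio of what 1 read is worth. The most frequent ratio gave depths of 0.697, 0.901 and 0.943 times the first siNT library for siNT replicate 2 and siRpl18 replicates 1 and 2. The third siRpl18 library stood at 1.1 times the third siNT library. The peak was only 5.31 and 5.58 times the mean density for siRpl18 replicate 1 and the third siRpl18 library, so these depths are rough. Across genes, log2 levels of the siNT replicates correlated at r = 0.996 and those of the siRpl18 replicates at r = 0.995.

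Rpl18 was measured at 1866 and 2067 FPKM in the siNT replicates and at 614 and 670.4 in the siRpl18 replicates, and the third libraries gave 2898 and 905. No siRpl18 library reached any siNT library of its table, and 32.6% of the siNT level remained in the replicates and 31.2% in the third library (log2 difference -1.61 ± 0.08, limma adjusted p = 1.13e-07). Processed copies of ribosomal protein genes are common in the genome, which leaves their levels uncertain wherever reads were split among copies. Embryonic stem cell markers summed to 7136 to 8173 FPKM in the 3 siNT libraries and to 5389 to 6186 in the 3 siRpl18 libraries. These and the other marker sums span both tables, which were normalized separately. Of the 8 markers 6 fell and 1 rose (35.1% and 32.6% of all genes tested). The gene with the highest level was Dppa5a, which differed by -0.61 in the replicates and -0.20 in the third libraries. Of 17 fibroblast and feeder markers, 11 stayed under 1 FPKM in all 6 libraries, and Dcn, Lum and Postn were listed at 0 in all 6. Their sum was 235 to 328 FPKM in siNT and 328 to 446 in siRpl18, and the gene with the highest level was Vim, an intermediate filament gene that embryonic stem cells also express. Without a filter on low values, 14 of the 17 could be tested, of which 4 rose and 3 fell (22.9% and 25.1% of all genes in that fit). Vim, Tagln, Col6a1 and Col1a1 rose (1.24, 0.68, 0.28 and 0.24), and Thy1, Pdgfrb and Fn1 fell (-0.89, -0.85 and -0.51). Among blood and endothelial markers, which summed to 39.3 to 49.7 and 46.8 to 57.4 FPKM, Ptprc was listed at 0 in all 6 libraries. In bulk RNA, fewer cells of a type and less RNA per cell cannot be told apart.

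Depletion of Rpl18 was followed by changes in most genes measured, and the largest were rises. Perp, a membrane protein of cell junctions and a p53 target, was at 9.03 and 9.53 FPKM in siNT and 226 and 259 in siRpl18, and at 6.63 and 238 in the third libraries (4.56 ± 0.06, limma adjusted p = 7.21e-11). Fgfbp1, a carrier of fibroblast growth factors, rose from 2.07 and 3.9 to 74.2 and 83.1 FPKM, and from 6.78 to 63.2 in the third libraries. Nupr1, a small stress-induced chromatin protein, had the largest fall that the third libraries repeated, from 56.6 and 57.6 to 7.76 and 9.49 FPKM (-2.6 ± 0.13, limma adjusted p = 1.55e-07), and from 41.95 to 7.58. For each of these 3 genes the siRpl18 and siNT libraries did not overlap. The small nucleolar RNAs Snora44 and Snora65 were called too, but were listed at 0 in both replicates of siNT and of siRpl18, respectively, and in the third libraries of both groups, so no difference is given for them. Of 12199 genes tested, 8251 (67.6%) were called, 3973 of them higher (32.6%) and 4278 lower (35.1%). A change of 2-fold or more was seen for 637 genes that rose (5.22%) and 308 that fell (2.52%).

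The third libraries counted toward the filter but entered no test behind those calls. They gave the same sign for 7472 of the called genes (90.6%), for 924 of the 945 called genes with a 2-fold change (97.8%), and for 61.5% of the genes not called. Across the 12199 genes the difference in the first table and that in the third libraries correlated at r = 0.834, as a description; all points come from the same 4 libraries on 1 axis and the same 2 on the other, and genes are not independent replicates. The median difference of all genes was -0.02 in both tables, and the median SE was 0.07, so calls include small differences.

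**Figure D1:**
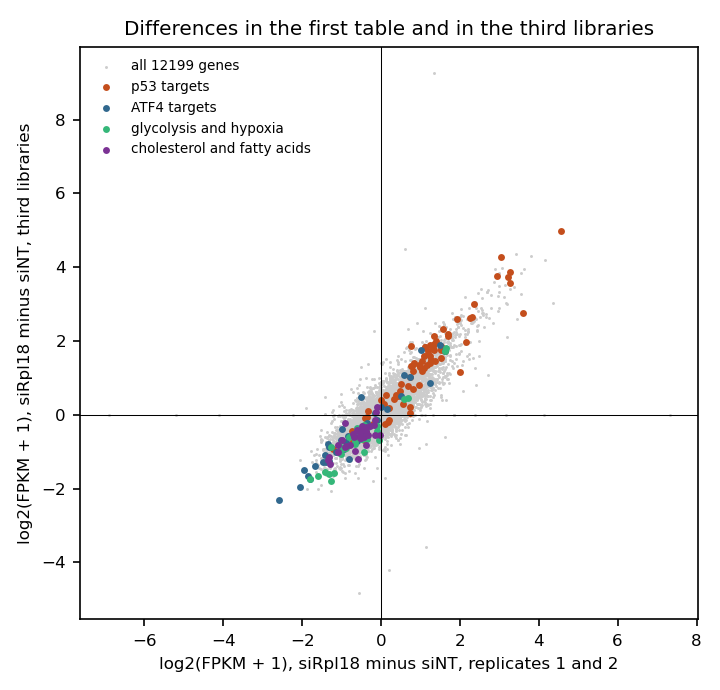
Each point is 1 of the 12199 genes; the x axis is the log2(FPKM + 1) difference of siRpl18 minus siNT in replicates 1 and 2, and the y axis is the same difference in the third libraries. Genes lie along the diagonal (r = 0.834), with p53 targets at the upper right and ATF4 targets, glycolytic and hypoxia-inducible genes and genes of cholesterol and fatty acid synthesis mostly at the lower left.

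Lists of genes were counted in a fit of the same 10 libraries without a filter on low values, so that no member could be counted merely because it was high in 1 group. In that fit 4433 of 19388 genes rose (22.9%), 4869 fell (25.1%), and the median difference was 0.00. These shares include many genes of low level. Among the 12199 genes that passed the filter 32.6% rose and 35.1% fell, the closer reference for lists whose members all passed it. Values of single genes stay those of the filtered fit.

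Regulators of p53 rose as a group. Of 15 genes, 11 rose and 1 fell, with a median of 0.63 against 0.00 for all genes, and the third libraries gave the same sign for all 11 that rose. Mdm2, the ligase that p53 itself induces, was at 41.97 and 41.2 FPKM in siNT and 375 and 370.1 in siRpl18, and at 36.3 and 337 in the third libraries. Trp73, a member of the p53 family, went from 1.87 and 1.51 to 20.4 and 19.5 FPKM, and Trp53inp1, a p53-induced nuclear protein, from 33.96 and 34.6 to 166 and 166. All 3 were higher in every siRpl18 library than in any siNT library of its table (3.13, 2.97 and 2.24 on the log2 scale). The p53 gene, Trp53, itself rose, from 189 and 182 to 359.5 and 359 FPKM and from 223 to 412 in the third libraries (0.95 ± 0.04, limma adjusted p = 5.06e-08). Ccng1, a cyclin, Rchy1, a ubiquitin ligase for p53, and Ppm1d, a phosphatase that dampens the response, rose by 1.35, 1.08 and 0.86. Mdm4, the partner of Mdm2, did not pass (-0.13, limma adjusted p = 0.137), with an opposite sign in the third libraries (0.46); without siRpl18 replicate 1 it passed (-0.22). The member that fell was Trp53inp2 (-0.65), a protein of autophagy.

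Established p53 targets were followed in 4 lists of 85 genes together, of which 80 passed the filter and 3 of those only through siRpl18. Without the filter 62 rose and 14 fell, the median was 0.95 (1.30 in the third libraries), and 40 rose by 2-fold or more. All 62 rises had the same sign in the third libraries, as did 13 of the 14 falls.

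The targets of growth arrest were the most uniform of the 4 lists, with 15 of 16 higher, 0 lower and a median of 1.16. Plk2, a stress-induced kinase, went from 11.8 and 11.4 FPKM in siNT to 119 and 121 in siRpl18, and from 4.97 to 86.7 in the third libraries (3.27). Ptprv, a receptor phosphatase of the arrest response in mouse, went from 2.33 and 2.11 to 25.5 and 25.9 FPKM (3.05), and Btg2, an antiproliferative transcription cofactor, from 16.9 and 18.03 to 86.5 and 94.6 (2.31). Cdkn1a, which encodes the cyclin-dependent kinase inhibitor p21, was at 52.5 and 48.3 FPKM in siNT and 126 and 132 in siRpl18, and at 42.7 and 146 in the third libraries (1.34 ± 0.06, limma adjusted p = 7.82e-08). In each of these 4 genes the groups did not overlap. Sfn, a 14-3-3 protein that holds cells before mitosis, rose by 1.51 and Rprm, another p53-induced arrest gene, by 1.35. The member not called was Pvt1, a long non-coding RNA (0.13, limma adjusted p = 0.304).

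The consensus bound by p53 can hold a pair of CATG cores, and sites with other cores or spacing were not searched. The motif CATGNNNNNNCATG was searched on both strands of the 250 bases before each gene start in RefSeq promoters of build GRCm38.p6, a build other than the mm9 of the deposited values. It was found in 1 of the 69 joined p53 targets with a listed promoter (1.45%) and in 0.57% of 27025 genes with one. The gene was Cdkn1a, in the window of the more upstream of its 2 listed starts, 2790 bases before the other. Its last 120 bases are shown because they carry the motif, in capitals, 5′ to 3′ in the direction of the gene:
Cdkn1a (chr17:29090859-29090978, plus strand): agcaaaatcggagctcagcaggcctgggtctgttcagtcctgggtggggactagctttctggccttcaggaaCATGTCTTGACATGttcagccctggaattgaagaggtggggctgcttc
A match is a description of letters, and no match says only that these letters are not in this window.

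Among targets of apoptosis 15 of 20 rose and 4 fell, with a median of 0.80. Fas, a death receptor, was at 0.194 and 0.166 FPKM in siNT and 13.7 and 12.7 in siRpl18, and at 0.172 and 6.87 in the third libraries (3.59 ± 0.12). Because Fas passed the filter only through siRpl18, its p-value is given from the fit without a filter (limma adjusted p = 1.35e-06). Apaf1, the core of the apoptosome, went from 9.08 and 8.2 to 30.04 and 30.4 FPKM (1.7). Ei24, Pmaip1 and Tnfrsf10b rose by 1.26, 1.24 and 1.17; Pmaip1 encodes the BH3-only protein Noxa and Tnfrsf10b a receptor for the death ligand Trail. The falls were Casp6, an effector caspase (-0.72), Bok, a Bcl2-family protein (-0.71), Bnip3l, a mitophagy receptor (-0.37), and Pycard, an inflammasome adaptor (-0.36).

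The wider Bcl2 family and apoptosis machinery, which shares 6 of those targets, had no common direction, with 9 of 25 higher and 8 lower (median 0.07). Bcl2l1, which encodes the survival protein Bcl-xL, rose by 1.12. Bmf and Hrk, which encode BH3-only proteins that promote death, fell (-1.16 and -0.91), as did Casp9, the caspase that the apoptosome activates (-0.73). Bcl2l11, which encodes the BH3-only protein Bim, did not pass (0.01, limma adjusted p = 0.933).

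Targets of metabolism and DNA repair were the most divided of the p53 lists, with 16 of 25 higher, 7 lower and a median of 0.74. Sco2, an assembly factor of cytochrome c oxidase, went from 4.03 and 4.35 to 19.07 and 20.2 FPKM, and from 22.1 to 50.4 in the third libraries, whose table gave higher levels in both groups (1.99 and 1.15). Ephx1, an epoxide hydrolase, went from 12.3 and 11.1 to 44.9 and 50.1 FPKM (1.93), and Ddit4, an inhibitor of the growth kinase mTORC1, from 109 and 99.9 to 314 and 331 (1.62). Dcxr, a reductase of sugars, and Ercc5, a nuclease of excision repair, rose by 1.58 and 1.51. Gls2, the liver-type glutaminase, fell from 19.7 and 20.2 to 7.84 and 8.27 FPKM (-1.21). The DNA damage recognition genes Ddb2 and Xpc also fell (-0.74 and -0.57), with no siRpl18 library at or above a siNT library of its table.

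Of 24 further p53 targets, 16 rose and 3 fell, with the highest median of the 4 lists except for growth arrest (1.07). Tap1, a peptide transporter of antigen presentation, went from 1.0 and 1.53 to 20.9 and 20.9 FPKM (3.28), Ddit4l, another inhibitor of mTORC1, from 4.4 and 5.77 to 54.4 and 55.1 (3.21), and Ptpn14, a phosphatase that restrains the coactivator YAP, from 5.72 and 5.4 to 49.02 and 49.4 (2.94). Phlda3, which blocks the kinase Akt at the membrane, rose by 2.35, Rap2b, a small GTPase, by 2.26, and Ddr1, a collagen receptor, by 2.16. The 3 falls were Trp53i13, Hbegf and Ier5 (-0.48, -0.42 and -0.4), and Ier5 did not pass without siNT replicate 1 (-0.30).

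**Figure D2:**
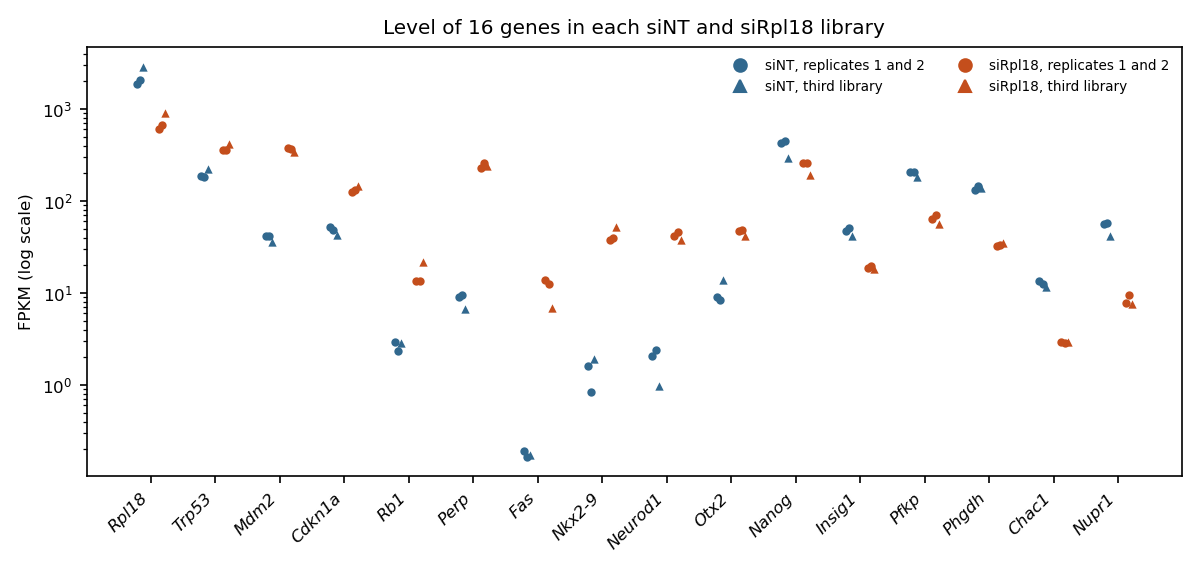
FPKM on a log scale of 16 genes in each library; blue is siNT, orange siRpl18, circles are replicates 1 and 2, and triangles are the third libraries, whose table was normalized separately. Within each table, the siNT and siRpl18 points of every gene shown are apart; Fas rises from under 0.2 FPKM in siNT.

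Inhibitors of cyclin-dependent kinases and the pocket proteins rose beyond Cdkn1a. Of 10 genes, 6 rose and 1 fell (median 0.75). Cdkn2b, the kinase inhibitor p15, was at 0.6 and 0.898 FPKM in siNT and 13.8 and 15.6 in siRpl18, and at 1.28 and 17.7 in the third libraries (3.17 ± 0.09, limma adjusted p = 4.86e-09). Rb1, the retinoblastoma protein that holds E2F factors, went from 2.93 and 2.33 to 13.7 and 13.3 FPKM, and from 2.88 to 21.7 (2.0). Cdkn2a, which encodes p16 and the Mdm2 inhibitor Arf, transcripts that a value per gene does not separate, went from 2.37 and 3.4 to 9.47 and 10.02 FPKM (1.48). These 3 genes were low in every siNT library and higher in every siRpl18 library. Rbl2 and Cdkn1c also rose (0.86 and 0.64), Rbl1 fell (-0.48), and Cdkn1b, the inhibitor p27, did not pass (-0.01, limma adjusted p = 0.942).

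Genes of the G1-S transition and DNA replication fell by small amounts. Of 40, 32 fell and 4 rose, the median was -0.33, and no difference reached 1 on the log2(FPKM + 1) scale. E2f2, a transcription factor of S phase entry, went from 10.8 and 11.6 to 5.19 and 5.03 FPKM (-0.99), and Mcm10, a replication initiation factor, from 64.1 and 70.2 to 38.2 and 40.5 (-0.76). The falls of Ccnd3 and E2f1 were -0.71 and -0.68. The 4 that rose were Ccnd2, Ccnd1, Orc6 and Rrm2 (0.71, 0.45, 0.15 and 0.12), and Orc6 was lower in the third siRpl18 library (-0.16). Orc6 did not pass without siRpl18 replicate 2 (0.10) or siNT replicate 2 (0.13), nor Rrm2 without siRpl18 replicate 1 (0.09) or siNT replicate 2 (0.10). Of 40 genes of G2 and mitosis, 24 fell and 2 rose, with a median of -0.19 and of -0.07 in the third libraries. Kif2c and Top2a, a mitotic kinesin and the topoisomerase that untangles chromosomes, fell (-0.63 and -0.63). Ube2c and Cdc20, which start the destruction of mitotic cyclins, rose by 0.33 and 0.3.

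Transcripts of the other ribosomal proteins moved little beside the fall of Rpl18 itself. Of 49 untargeted 60S genes, 14 fell and 3 rose, with a median of -0.04 (0.05 in the third libraries) and none changed by 2-fold; with quantile normalization of the filtered fit 18 rose and 16 fell. Rpl3, a core 60S protein, stood apart, at 1344 and 1414 FPKM in siNT and 706 and 744 in siRpl18, and at 1380.4 and 797 in the third libraries (-0.93 ± 0.06, limma adjusted p = 9.67e-07). Rpl26 and Rpl10a fell (-0.5 and -0.49), and Rpl23a (0.34) and Rpl34 (0.28, with -0.39 in the third libraries) were among the 3 that rose. Rpl34 did not pass without siRpl18 replicate 2 (0.26) or siNT replicate 1 (0.17). Of 34 genes of the small (40S) subunit, 8 rose and 1 fell, and in the filtered fit 10 rose, or 17 with quantile normalization. Rps27l, which p53 induces, went from 577 and 624 to 975 and 1045 FPKM (0.75), whereas Rps25 fell (-0.35) and had a difference of 0.01 in the third libraries.

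In the list of the 5S ribonucleoprotein and its assembly partners, Rpl5 fell (-0.26) and Rpl11 did not pass (0.03, limma adjusted p = 0.797). After quantile normalization Rpl5 did not pass (-0.03) and Rpl11 rose (0.23), and Rpl5 did not pass without siRpl18 replicate 1 (-0.16) or siNT replicate 2 (-0.23). Their loading factors Rpf2 and Rrs1 rose (0.4 and 0.36), but differed by only 0.12 and 0.05 in the third libraries. Of 63 ribosome biogenesis genes, 26 rose and 17 fell (median 0.08, and -0.01 in the third libraries). Ddx56, an RNA helicase of 60S assembly, went from 19.8 and 20.4 to 48.8 and 48.9 FPKM, and from 23.2 to 47.98 (1.24). Utp20, of the small subunit processome, and Brix1, of early 60S particles, rose by 0.83 and 0.8, while Nop10 and Imp3, nucleolar proteins that work with small nucleolar RNAs, fell (-0.57 and -0.44). Host genes of small nucleolar RNAs mostly fell, 8 of 12, with Snhg11 at -1.76, Snhg20 at -1.11 and Snhg8 at -1.0. Among 58 mitochondrial ribosomal proteins 23 rose and 7 fell, none by 2-fold, and among 41 translation factors 10 rose and 13 fell. Eif2s2, the beta subunit of the initiation factor eIF2, went from 189 and 188 to 102 and 99.2 FPKM (-0.9).

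Genes of the amino acid response fell together. This programme is run by ATF4, a transcription factor whose translation rises when amino acids run short or eIF2 is phosphorylated, and it supplies enzymes of serine, proline and asparagine synthesis, transporters and tRNA synthetases. Among 38 targets of ATF4, 27 fell and 8 rose, with a median of -0.84 (-0.69 in the third libraries), and 14 fell by 2-fold or more. The gene Atf4 itself was at 191 and 194 FPKM in siNT and 189.8 and 192 in siRpl18 (-0.01 ± 0.04, limma adjusted p = 0.836).

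Phgdh, the first enzyme of serine synthesis, went from 132 and 145 FPKM to 32.2 and 33.2, and from 139 to 34.9 in the third libraries (-2.05 ± 0.07, limma adjusted p = 8.39e-09). The next enzymes of that path, Psat1 and Psph, went from 219 and 228 to 65.5 and 72.5 and from 37.2 and 41.3 to 14.97 and 15.5 FPKM (-1.68 and -1.31). Pycr1, the last step of proline synthesis, went from 21.7 and 20.2 to 4.16 and 5.26 (-1.95). In these 4 genes every siRpl18 library lay below every siNT library of its table. Chac1, which breaks down glutathione, went from 13.6 and 12.6 to 2.96 and 2.88 FPKM (-1.85). Pck2, the mitochondrial enzyme that makes phosphoenolpyruvate, fell from 14.8 and 14.8 to 3.08 and 3.46 (-1.89).

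The 8 targets that rose included Ddit4 (1.62), Atf3, a stress-induced transcription factor (1.49), Slc38a2, the neutral amino acid transporter that adapts to starvation (1.24), and Ddit3, which encodes CHOP (1.01). Atf3 went from 1.3 and 1.26 to 4.68 and 6.29 FPKM and Ddit3 from 28.6 and 24.9 to 50.9 and 58.8, with no overlap of the groups, and both had the same sign in the third libraries (1.90 and 1.75). Ddit4 and Atf3 are also known to respond to p53.

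The composite C/EBP-ATF element to which ATF4 binds was searched as TGATGCAA on both strands of the same RefSeq windows (GRCm38.p6). It was found in 7 of the 32 ATF4 targets with a listed promoter (21.9%) against 0.918% of the 27025 genes and 0.637% of tested genes. Of the 7, 5 fell and 1 rose. It was also found in 2 of 12 tRNA synthetase genes with a listed promoter, Aars and Tars. Stretches of 120 bases around the match are shown for 3 genes that fell by over 1.8 on the log2 scale, for Aars and for Atf3, which rose, with the match in capitals (TGATGCAA, or TTGCATCA where it lies on the other strand), 5′ to 3′ in the direction of the gene:
Chac1 (chr2:119350992-119351111, plus strand): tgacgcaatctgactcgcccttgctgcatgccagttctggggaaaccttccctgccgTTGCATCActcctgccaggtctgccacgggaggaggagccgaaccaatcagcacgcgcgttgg
Pycr1 (chr11:120643792-120643911, minus strand): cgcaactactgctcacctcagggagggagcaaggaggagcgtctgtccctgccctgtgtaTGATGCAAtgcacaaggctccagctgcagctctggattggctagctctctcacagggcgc
Nupr1 (chr7:126625521-126625640, minus strand): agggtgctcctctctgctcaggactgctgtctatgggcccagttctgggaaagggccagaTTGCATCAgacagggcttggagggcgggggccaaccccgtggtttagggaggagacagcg
Aars (chr8:111033670-111033789, plus strand): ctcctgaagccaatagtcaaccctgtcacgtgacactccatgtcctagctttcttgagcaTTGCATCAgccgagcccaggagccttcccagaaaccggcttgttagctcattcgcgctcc
Atf3 (chr1:191183384-191183503, minus strand): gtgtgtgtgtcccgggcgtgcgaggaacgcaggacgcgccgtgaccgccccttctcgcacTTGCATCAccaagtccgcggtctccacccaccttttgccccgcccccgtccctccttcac
The last base of these stretches lies at -131, -44, -51, -53 and -51 from the start. The same 8 letters thus stand upstream of genes that fell and of a gene that rose.

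Cytosolic aminoacyl-tRNA synthetases, which charge tRNAs with amino acids, fell almost as a set: 17 of 20 fell and 0 rose, with a median of -0.47 (-0.39 in the third libraries). Sars, for serine, went from 108 and 110.1 to 43.3 and 48.5 FPKM (-1.23), Nars, for asparagine, from 191 and 203 to 89.1 and 98.1 (-1.07), and Yars, for tyrosine, from 77.2 and 73.4 to 36.2 and 35.1 (-1.06). Aars, whose upstream sequence is given above, went from 171 and 169.7 to 85.6 and 90.6 FPKM, and from 149 to 89.2 in the third libraries (-0.94). The groups did not overlap in these 4 genes. The members not called were Dars, Farsa and Farsb (0.02, -0.08 and -0.05).

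Amino acid transporters were divided, with 14 of 26 lower and 4 higher. Slc1a5 and Slc1a4, exchangers of neutral amino acids, fell (-1.35 and -1.01), as did Slc6a9, a glycine transporter (-1.0). Slc7a1, for cationic amino acids, went the same way (-0.67). The 4 that rose were Slc43a2, Slc7a7, Slc38a2 and Slc3a2 (1.33, 1.3, 1.24 and 0.15), and Slc3a2 did not pass without siRpl18 replicate 2 (0.10) or siNT replicate 2 (0.09). Endoplasmic reticulum chaperones and genes of the unfolded protein response, a neighbouring stress pathway, had 13 of 25 lower and 7 higher. Ero1l, a thiol oxidase, fell (-0.99) as did Sdf2l1 and Herpud1 (-0.7 and -0.65), while Ppp1r15a, a phosphatase subunit that reverses eIF2 phosphorylation, rose by 1.16.

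Glycolytic and hypoxia-inducible genes, many of them targets of the oxygen-regulated factor HIF, also fell: 26 of 34 fell and 4 rose, with a median of -0.63 (-0.64 in the third libraries). All 26 falls had the same sign in the third libraries. Vegfa, the angiogenic growth factor, went from 29.8 and 27.1 to 6.91 and 8.09 FPKM, and from 20.01 to 5.35 (-1.79 ± 0.10, limma adjusted p = 3.28e-07). Pfkp, an isoform of phosphofructokinase, went from 206 and 206 to 63.1 and 71.01 FPKM (-1.61), and Bnip3, a mitophagy receptor, from 170.2 and 164 to 56.8 and 67.3 (-1.42). Aldoc and Egln3, an aldolase and a prolyl hydroxylase that marks HIF for destruction, fell (-1.33 and -1.28). Abundant glycolytic transcripts moved the same way: Ldha, lactate dehydrogenase A, went from 2100.1 and 2229 to 1304 and 1432 FPKM (-0.66) and Pgk1, phosphoglycerate kinase, from 867 and 910.5 to 453 and 513 (-0.88). None of the genes given with levels here overlapped between the groups. The 4 that rose were Pfkfb4, a regulator of glycolytic flux (1.65), Ddit4, Plod2, a collagen-modifying enzyme (0.69), and Hif1a itself (0.57).

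HIF binds the core ACGTG. On both strands of the same windows it was found in 19 of 31 listed members with a promoter (61.3%), against 18.5% of the 27025 genes and 25.8% of tested genes, and 14 of the 19 fell and 2 rose. Stretches of 120 bases are shown for Bnip3, Ldha and Pgk1, picked after their values were seen, because they hold more than 1 match, in capitals; the core reads CACGT where it lies on the other strand, and a palindrome of 6 bases counts as an overlapping match on each strand:
Bnip3 (chr7:138909554-138909673, minus strand): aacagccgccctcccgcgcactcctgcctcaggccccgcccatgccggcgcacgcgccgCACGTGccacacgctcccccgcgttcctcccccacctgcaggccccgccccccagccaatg
Ldha (chr7:46845684-46845803, plus strand): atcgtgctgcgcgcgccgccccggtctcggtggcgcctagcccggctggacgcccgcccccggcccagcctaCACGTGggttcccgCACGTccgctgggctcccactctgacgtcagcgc
Pgk1 (chrX:106186909-106187028, plus strand): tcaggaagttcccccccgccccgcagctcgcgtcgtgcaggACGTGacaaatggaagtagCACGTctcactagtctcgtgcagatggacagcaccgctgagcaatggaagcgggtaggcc
These windows hold 2, 5 and 2 matches in 250 bases, of which 2, 3 and 2 are shown. Ldha has 2 listed starts, 1278 bases apart, and the more upstream one is used.

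Synthesis of cholesterol and fatty acids fell without exception among the genes called. Of 33 genes, 29 fell and 0 rose, and the median was -0.53 (-0.58 in the third libraries). Insig1, which holds the sterol sensor in the endoplasmic reticulum, went from 47.6 and 50.8 to 18.9 and 19.6 FPKM, and from 41.7 to 18.2 (-1.31 ± 0.06, limma adjusted p = 5.42e-08), and Scd1, a desaturase of fatty acids, from 31.3 and 27.2 to 12.1 and 10.4 (-1.3). The groups did not overlap in either gene. Msmo1, Scd2 and Dhcr7 fell (-1.09, -1.08 and -1.0). Srebf2, the transcription factor of the pathway, fell (-0.71). The 4 genes not called were Ebp, Mvk, Pmvk and Hsd17b7, and Pmvk passed without siRpl18 replicate 2 (-0.26).

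**Figure D3:**
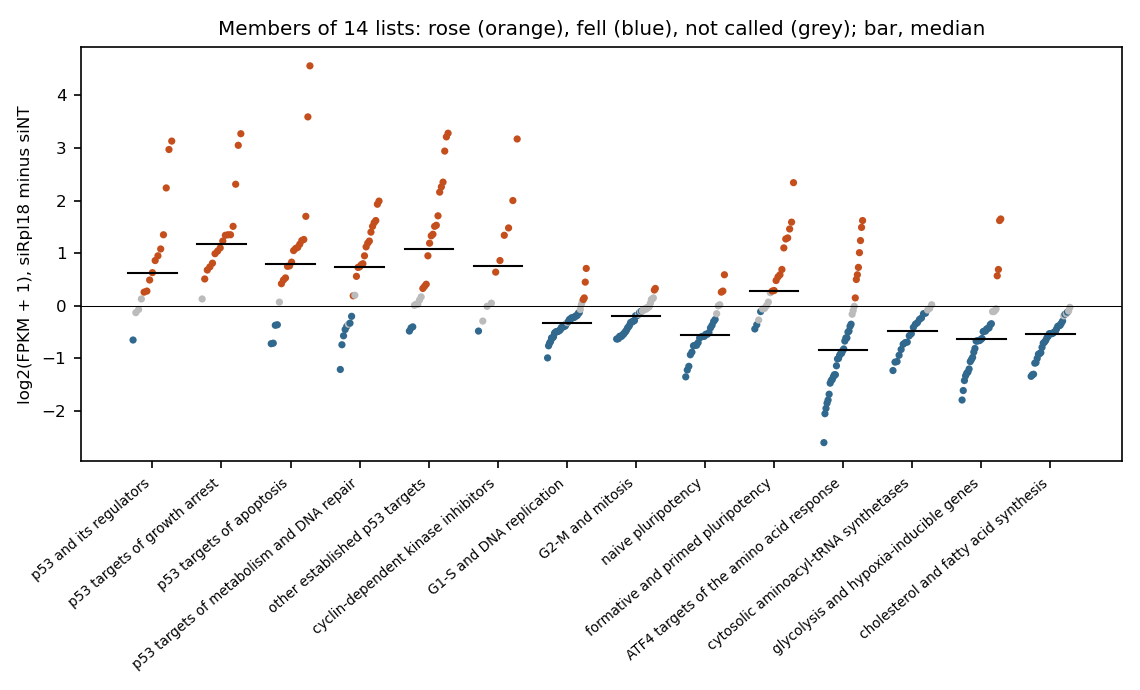
Each point is a list member by its log2(FPKM + 1) difference, siRpl18 minus siNT, from the fit without a filter, for 14 lists; orange points rose, blue points fell, grey points were not called, and bars are medians. Bars lie above 0 for the p53 lists, Cdk inhibitors and formative genes, and below 0 for cell cycle, naive pluripotency, ATF4, tRNA synthetase, hypoxia and cholesterol lists.

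Naive pluripotency genes fell and genes of the formative state rose. Of 26 naive genes 20 fell and 3 rose (median -0.56, -0.44 in the third libraries). Tcl1, a coactivator of Akt, went from 156 and 160 to 58.1 and 64.7 FPKM, and from 179 to 78.5 (-1.35). Tfcp2l1, a LIF-responsive transcription factor, went from 89.96 and 82.5 to 38.1 and 34.7 (-1.22), and Nanog, a homeobox factor, from 431 and 446 to 257 and 261 (-0.76). The groups did not overlap in these genes, and levels stayed high: Nanog kept 58.97% of its siNT level. The 3 that rose were Sall4, Tdh and Fbxo15 (0.59, 0.28 and 0.26, with -0.03 for Fbxo15 in the third libraries). Core factors were evenly divided, 6 higher and 6 lower of 15: Sox2 rose by 0.35, Pou5f1, which encodes Oct4, fell (-0.31, and -0.02 after quantile normalization, which did not pass), and Eras, a Ras-like growth gene, fell (-1.19).

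Of 21 formative and primed genes 12 rose and 3 fell. Otx2, a homeobox factor that leads this step, went from 9.03 and 8.34 to 47.3 and 48.5 FPKM, and from 13.7 to 41.9 in the third libraries (2.34 ± 0.05, limma adjusted p = 5.80e-10). Lef1, a Wnt effector, went from 3.41 and 3.65 to 11.98 and 13.3 (1.59), and Sall2, Cldn6, Nodal and Pou3f1 rose by 1.46, 1.29, 1.27 and 1.1. The 3 falls were Dnmt3b (-0.44), a DNA methyltransferase that is usually high in formative cells, Fgf15 (-0.36) and Zic2 (-0.11). Zic2 did not pass in the filtered fit, but did without the filter and, with it, after quantile normalization (-0.16). It also passed with a pseudocount of 0.1 (-0.12), with all 15 libraries fitted (-0.25) and with a replicate block (-0.11). The third libraries gave -0.53 for it.

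LIF and Stat3 signalling genes mostly fell, 10 of 15, among them Bcl3 (-0.99), Tfcp2l1, Socs3 (-0.55, but 0.12 in the third libraries) and the receptor subunit Il6st (-0.29). The 2 that rose were Lif itself, from 1.51 and 1.46 to 5.3 and 5.22 FPKM (1.33), also a known p53 target, and Stat3 (0.66).

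Genes of the 2-cell-like state rose, from low levels. Of 44 listed genes 40 were above 0 in at least 1 library and 34 passed the filter, 9 of them only through siRpl18; without the filter 35 rose, 1 fell and the median was 1.06. Zfp352, a zinc finger gene, went from 0.792 and 0.848 to 5.8 and 6.02 FPKM, and from 0.228 to 2.08 (1.93). Dux, the homeobox factor that turns the programme on, went from 0.337 and 0.393 to 1.91 and 1.77 FPKM, and was listed at 0 and at 0.603 in the third libraries (1.06). Tdpoz3 and Tdpoz4 rose by 3.2 and 2.7, Zfp750 by 2.57 and Tmem92 by 2.22. Within each table siRpl18 libraries were above siNT libraries for the genes given with levels. The Tdpoz, Zscan4, Usp17l and Obox genes are families of near-identical copies, so which copy gave the reads is uncertain. Among 27 regulators of this state 12 fell and 8 rose. Ehmt2 and Setdb1, methyltransferases of histone H3, and Chaf1b, a histone chaperone, which restrain it, fell (-0.66, -0.61 and -0.57), and Dppa2, an activator of Dux, rose by 0.78.

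Summed markers of primitive endoderm and trophoblast stayed low beside those of embryonic stem cells. Primitive endoderm markers summed to 4.65 to 5.1 FPKM in the siNT libraries and to 7.07 to 10.1 in the siRpl18 libraries, and trophoblast markers to 9.35 to 12 and 20.6 to 21.5, against sums of 5389 or more for embryonic stem cell markers in every library. Of 41 neural genes 17 rose and 2 fell, of 20 mesoderm genes 11 and 2, of 27 endoderm genes 15 and 3, and of 22 trophectoderm genes 12 and 2. Several of these had been near 0 in siNT, and 5, 4, 7 and 4 of them, respectively, passed the filter only through siRpl18. In the same order, the list medians were 0.11, 0.24, 0.34 and 0.50, but 0.10, 0.16, 0.03 and 0.10 in the third libraries. The third libraries gave the same sign for 17, 9, 14 and 10 of the rises and 2, 0, 3 and 2 of the falls.

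Neurod1, a proneural transcription factor, went from 2.05 and 2.39 to 41.2 and 46.3 FPKM, and from 0.983 to 37.95 (3.8 ± 0.08, limma adjusted p = 5.80e-10). Insm1, a factor of neuroendocrine cells, went from 0.0782 and 0.109 to 3.58 and 3.29 (2.02), and Irx3, a homeobox factor of the neural tube, from 0.261 and 0.42 to 3.92 and 3.53 (1.82). The neuronal structural genes Tubb3 and Stmn2 went the other way (-0.77 and -0.88), and Sox1 and Pax6, early markers of neuroectoderm, did not pass (0.1 and 0.11, limma adjusted p = 0.496 and 0.46). The 3 rising factors were low in every siNT library and did not overlap between the groups. Gata3, a trophoblast factor, went from 0.0381 and 0.0272 to 4.66 and 4.93 FPKM (2.49), Wnt3, a ligand of the primitive streak, from 0.0501 and 0.0949 to 4.77 and 3.84 (2.3), and Fst, an activin antagonist, from 0.332 and 0.545 to 3.54 and 3.61 (1.67).

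Among epithelial genes Krt7 and Krt19 rose (1.69 and 1.22), while Cldn3, a tight junction protein, fell (-1.0). Cdh1 and Epcam, which embryonic stem cells express, did not pass (-0.01 and -0.11, limma adjusted p = 0.812 and 0.0816). Epcam did pass as a fall after quantile normalization (-0.16) and with all 15 libraries fitted (-0.13). The list had 17 of 39 higher and 10 lower. The summed trophoblast markers were higher too, but Krt7 is among them, so the sum and this keratin are not independent. The part of such cells in the result was not tested.

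Signalling lists were read by ligands, receptors and targets. Of 23 Wnt genes 14 rose and 3 fell; besides Wnt3, the ligands Wnt9a and Wnt8a rose by 1.6 and 1.5 and the target Sp5 by 1.18, whereas Notum, a secreted Wnt inhibitor and itself a target, fell (-0.84). Of 21 genes of Nodal, activin and BMP signalling 11 rose and 6 fell. Inhbb, a subunit of activin B, fell from 39.4 and 38.2 to 9.85 and 9.5 FPKM (-1.9) as did the ligand Bmp4 (-1.0), while Nodal and its antagonist and target Lefty1 rose by 1.27 and 1.48. Id1, Id2 and Id3, targets of BMP, rose by 0.64, 0.82 and 1.23 in the first table and differed by 0.27, 0.03 and 0.18 in the third libraries.

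Feedback genes of the FGF-ERK pathway were higher in 13 of 21 and lower in 4. Phlda1 and Dusp4 rose by 2.13 and 1.64, and Fgf4, the ligand that embryonic stem cells make, and Spry4 fell (-1.15 and -0.84). Of 24 immediate early genes 12 rose and 4 fell, with large rises of AP-1 members: Fosl1 went from 0.206 and 0.118 to 8.0 and 8.28 FPKM (2.98) and Jun from 2.71 and 2.48 to 14.8 and 16.2 (2.2), while Ier3, an early response gene, fell (-1.16). Of 22 targets of YAP and TEAD 12 rose and 4 fell. Cyr61, a matricellular protein, went from 3.84 and 4.35 to 56.1 and 62.2 FPKM (3.56) and its relative Ctgf from 6.03 and 5.41 to 33.6 and 34.03 (2.38). The groups did not overlap in Fosl1, Jun, Cyr61 or Ctgf.

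In the Notch list 8 of 19 rose and 4 fell. The ligand Dll1 went from 1.44 and 1.43 to 6.81 and 7.72 FPKM (1.76) and Jag1 and Notch3 rose by 1.12 and 1.1, while the receptor Notch4 fell (-1.02). Of 18 Hedgehog and ventral neural genes 9 rose and 4 fell. Nkx2-9 went from 1.63 and 0.837 to 37.3 and 39.98 FPKM, and from 1.91 to 52.3 (4.17 ± 0.14, limma adjusted p = 8.08e-09), and Nkx2-2 from 0.0539 and 0.0543 to 1.99 and 2.38 (1.59). The pathway's mediator Gli1 did not pass (0.17, limma adjusted p = 0.0735). It passed as a rise with median-ratio scaling (0.19), all 15 libraries fitted (0.20), only the groups compared (0.17) or a replicate block (0.17). Ptch1, another target, rose by 0.65, Dhh, a ligand, rose by 1.44, and Smo and Gli2 fell (-0.68 and -0.81). Of 21 retinoic acid genes 11 rose and 3 fell. Stra8, a gene of meiotic entry, fell (-2.06), while Crabp1, a binding protein, went from 42.2 and 38.7 to 16.4 and 16.4 FPKM in the first table and from 12.8 to 13.4 in the third libraries, which did not repeat its fall.

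Other cellular systems changed less or without direction. Of 12 genes of the Myc network 4 rose and 5 fell. Mxd4, an antagonist of Myc, rose from 2.33 and 2.92 to 8.01 and 8.57 FPKM (1.36) and Mycn from 42.1 and 39.7 to 90.2 and 88.1 (1.11), while Myc did not pass (-0.11, limma adjusted p = 0.252) except without siRpl18 replicate 1 (-0.25). Lysosomal genes were divided, 13 higher and 16 lower of 38, yet Man2b1, an alpha-mannosidase, went from 16.8 and 15.1 to 99.6 and 99.2 FPKM, and from 13.2 to 95.5 (2.57), and Gusb, beta-glucuronidase, fell (-1.06). Of 40 nuclear-encoded subunits of oxidative phosphorylation 11 fell and 5 rose, of 31 proteasome subunits 14 and 7, and of 20 heat shock genes 9 and 7, and no difference in these 3 lists reached 1 on the log2(FPKM + 1) scale. Of 25 interferon response genes 9 fell, among them Oas1a (-1.44) and Stat2 (-1.09), and the 4 that rose included Tap1, Cxcl10 and Ifitm3 (3.28, 1.31 and 0.39). Of 28 germline genes 11 fell and 5 rose, with Taf7l, a germ cell transcription factor, from 1.76 and 1.47 to 12.1 and 11.3 FPKM (2.28) and Kit, a receptor, lower (-1.17).

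**Figure D4:**
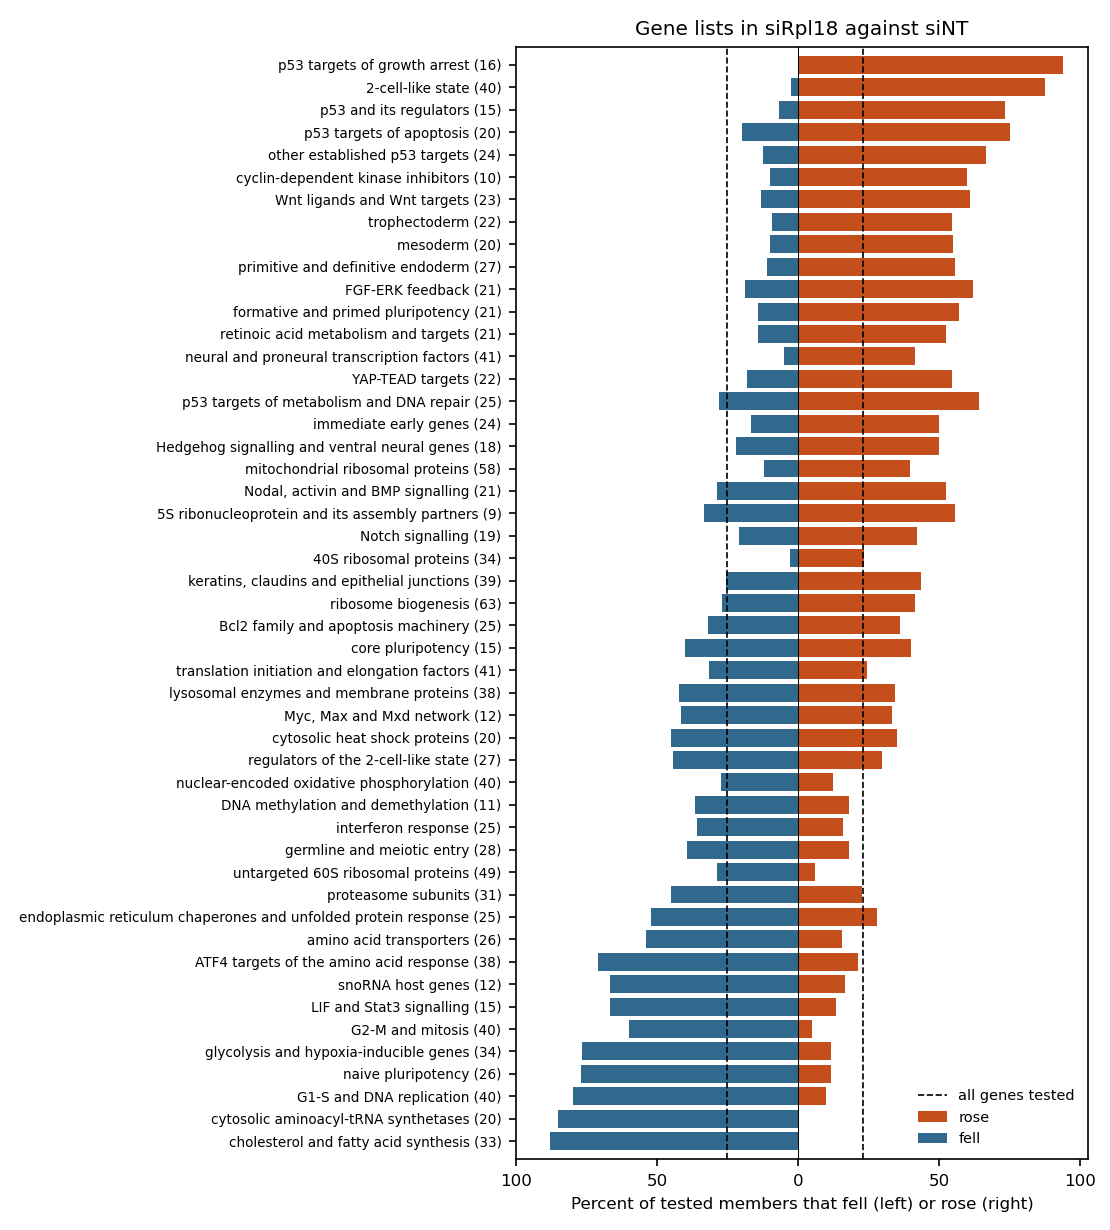
Bars give the percent of each list's members, counted without a filter on low values, that rose (orange, right) or fell (blue, left) in siRpl18 against siNT; the number of members tested is in parentheses, and dashed lines mark the shares of all 19388 genes, 22.9% and 25.1%. Over the 12199 genes that passed the filter the shares were higher, 32.6% and 35.1%. Lists with long bars on 1 side are p53 targets and 2-cell-like genes on the right and cholesterol, tRNA synthetase and G1-S genes on the left.

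Outside these lists the largest rises were of genes that were near silent in siNT. Matn1, a cartilage matrix protein, went from 0.747 and 1.31 to 24.1 and 23.8 FPKM (3.63), and Cpz, a carboxypeptidase, from 0.381 and 0.304 to 15.2 and 14.5 (3.56). Ltb4r2 and Ltb4r1, receptors for leukotriene B4, went from 0.544 and 0.587 to 15.7 and 15.9 and from 0.321 and 0.394 to 11.9 and 11.6 FPKM (3.42 and 3.23), and Lpar6, a receptor for lysophosphatidic acid, from 2.61 and 2.37 to 35.03 and 38.8 (3.44). The groups did not overlap in these genes. Lpar6 lies within an intron of Rb1, which also rose, and Ltb4r1 and Ltb4r2 are close neighbours; whether counting used strand is not given in the sources used here, so reads of such pairs may have been shared. Gadd45g, a stress-induced growth regulator, Plcd4, a phospholipase, Mlana, a melanosome protein, and Cd80, a costimulatory ligand, rose by 3.28, 3.38, 3.19 and 3.15. Among falls outside the lists, Gabbr1, a subunit of the GABA-B receptor, went from 23.1 and 21.98 to 7.3 and 5.4 FPKM (-1.69), Gchfr, a regulator of biopterin synthesis, from 7.32 and 5.87 to 0.745 and 1.83 (-1.77) and Rln3, a relaxin peptide, from 6.79 and 6.12 to 1.05 and 1.9 (-1.61).

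The response to siRpl18 was set against the other 60S knockdowns directly, in contrasts that do not involve siNT. Against siRpl23 417 of 12199 genes differed (3.42%), 126 higher in siRpl18 (1.03%) and 291 lower (2.39%). Those 2-fold or more higher (0.0246%) were Rpl23 and the histone genes Hist1h2ak and Hist1h4h (1.03 and 1.08), copies of which are near identical, and Rpl18 was lower by that much (0.0082%). Neither histone gene passed without siRpl18 replicate 1 (limma adjusted p = 0.116 and 0.137), and Hist1h4h was not higher in the third libraries (-0.07). Against siRpl14 1733 differed (14.2%), 731 higher (5.99%) and 1002 lower (8.21%), with 5 and 4 of them by 2-fold or more (0.041% and 0.0328%). The 5 higher were Sox18, Pcdh8, Cyyr1, Snora78 and Rprl3, the last 2 of them small RNAs listed at 0 in the third libraries, and the 4 lower were Rpl18, Krt8, Tagln and Pisd. Against siRpl11 6456 differed (52.9%), 4394 higher (36%) and 2062 lower (16.9%), with 511 and 35 by 2-fold or more (4.19% and 0.287%). The share of higher calls depended on scaling: it was 30.2%, 42.2% and 68.1% for siRpl23, siRpl14 and siRpl11, and 46%, 51.9% and 42.9% after quantile normalization, which moved the median difference of all genes from siRpl11 from 0.09 to -0.05. The third libraries gave the same sign for 92.3%, 89.3% and 96.5% of the called genes. Without siRpl18 replicate 1 or 2 the counts fell to 65 and 92 for siRpl23 and to 789 and 723 for siRpl14, so those counts rest on having both libraries. With replicate number as a block the count for siRpl23 was 947. Rpl14 was at 605 and 629 FPKM in siRpl14 and 1159 and 1229.6 in siRpl18, and Rpl23 at 412 and 436 in siRpl23 and 1266 and 1417 in siRpl18, which checks the labels of those groups.

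Pisd, which makes phosphatidylethanolamine in mitochondria, had the largest difference from all 4 other groups after Rpl18 itself. It was at 24.8 and 24.8 FPKM in siRpl18 and 20.3 in the third siRpl18 library, against 49.4 and 51.4 in siNT, 50.9 and 52.1 in siRpl14, 50.3 and 50.4 in siRpl23 and 52.1 and 53.9 in siRpl11. The level was near 50 FPKM in every other group of the first table and near 25 in siRpl18 (siRpl18 minus siRpl14 -1.02 ± 0.04, limma adjusted p = 3.91e-06; minus siRpl23 -0.99, limma adjusted p = 5.24e-06). The third libraries gave -1.09 and -1.10. Pisd has near-identical pseudogenes, among which reads could be split.

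Keratins of simple epithelia separated siRpl18 from siRpl14 and siRpl23. Krt8 was at 4.4 and 5.46 FPKM in siNT and 10.1 and 11.3 in siRpl18, but at 24.2 and 25.02 in siRpl14 and 20.9 and 19.8 in siRpl23 (siRpl18 minus siRpl14 -1.13 ± 0.11, limma adjusted p = 7.48e-04). Its partner Krt18 was at 7.9 and 9.27 in siRpl18, 15.2 and 16.6 in siRpl14 and 16.01 and 15.1 in siRpl23 (-0.82 and -0.79). Both keratins therefore rose less in siRpl18 than in those knockdowns, and the third libraries kept that order. Cldn4, a tight junction protein, was at 36.5 and 36.97 FPKM in siRpl18, 54.5 and 48.4 in siNT, 55.3 and 56.98 in siRpl14 and 68.4 and 64.1 in siRpl23, with differences of -0.6 and -0.83. Of 39 epithelial genes counted without a filter, 9 were lower and 2 higher in siRpl18 than in siRpl14 (3.57% and 3.01% of the 19388 genes), and 7 were lower and 1 higher than in siRpl23 (0.934% and 0.444%). Against siRpl11, where Krt8 was at 2.14 and 2.85 and Cldn4 at 12.8 and 12.2 FPKM, 29 were higher and 1 lower (24.2% and 10.2%). The smooth muscle protein Tagln, the galectin Lgals1 and the annexin Anxa3 were also lower than in siRpl14 (-1.03, -0.88 and -0.85). Tagln is among the fibroblast and feeder markers, of which, without a filter, 1 of 14 was higher and 1 lower in siRpl18 than in siRpl14; their part in the result was not tested.

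A few developmental transcription factors were higher in siRpl18 than in siRpl14, while the lists that hold such genes were divided. Of 41 neural genes counted without a filter, 3 were higher and 2 lower than in siRpl14, and of 27 endoderm genes 3 and 1. Over all 19388 genes 3.01% were higher and 3.57% lower in that contrast, and 0.444% and 0.934% against siRpl23. Against siRpl23 limma called 0 in either list, with 4 higher and 3 lower neural genes and 4 higher and 2 lower endoderm genes at an unadjusted p under 0.05. The share of all genes at that unadjusted threshold was not counted. Nkx2-9 was at 37.3 and 39.98 FPKM in siRpl18 against 20.4 and 19.7 in siRpl14, 23.1 and 24.1 in siRpl23 and 22.8 and 19.98 in siRpl11 (differences 0.91, 0.69 and 0.83, limma adjusted p = 0.00364, 0.0274 and 6.29e-04). The difference from siRpl23 did not pass without siRpl18 replicate 1 or 2 (limma adjusted p = 0.0987 and 0.12), with a pseudocount of 0.1 or 0.5 (0.114 and 0.0589) or without a filter (0.0856). Foxa2, a pioneer factor of floor plate and endoderm, was at 1.35 and 1.09 in siRpl18 and at 0.475 and 0.24, 0.456 and 0.47 and 0.494 and 0.711 in those groups, all low levels. Foxn4, a factor of ventral interneurons, was at 6.77 and 6.8 in siRpl18, 4.32 and 3.75 in siNT and 3.12 and 2.87 in siRpl14, so that its siRpl14 libraries lay below siNT and its siRpl18 libraries above. Foxj1, which drives motile cilia, and Cyyr1, a membrane protein, were higher than in siRpl14 (0.95 and 1.08) and did not pass against siRpl23 (0.33 and 0.32, limma adjusted p = 0.0809 and 0.093) except after quantile normalization (0.37 and 0.35, both with limma adjusted p = 0.0482). Higher than in siRpl14 too was Sox18, a factor of endothelium (1.15). For Nkx2-9, Foxa2, Foxn4, Foxj1, Cyyr1 and Sox18 the third libraries also gave a higher level in siRpl18 than in siRpl14.

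**Figure D5:**
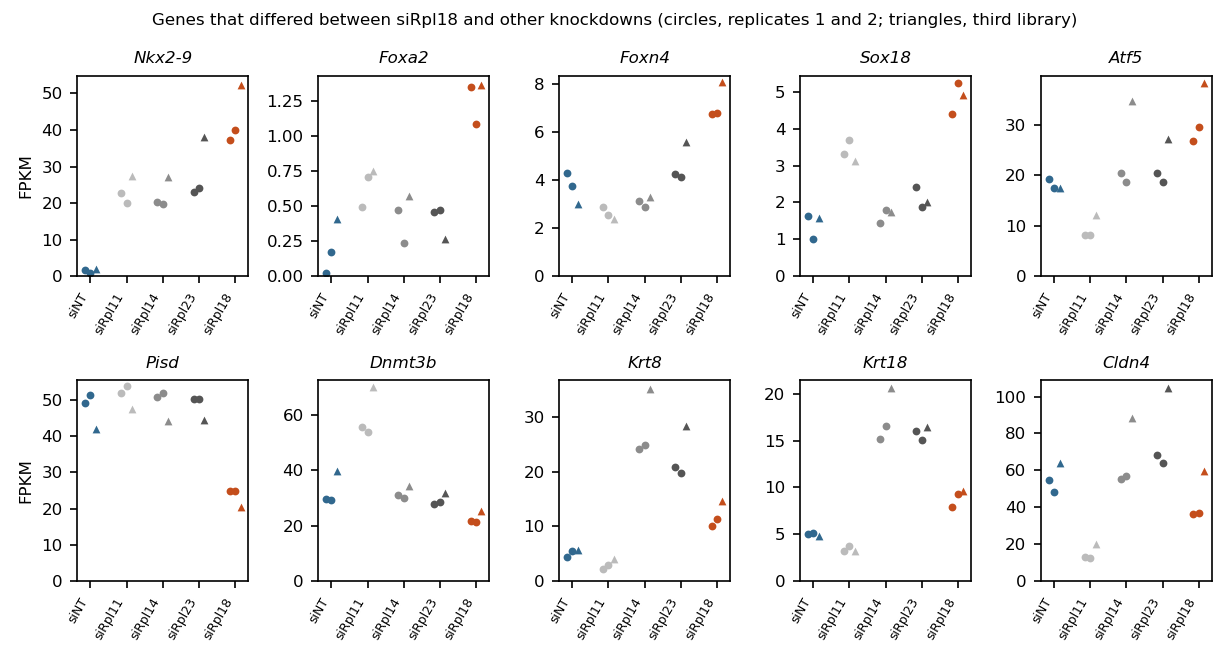
FPKM of 10 genes in all 15 libraries, with circles for replicates 1 and 2, triangles for the third library, normalized separately, and siRpl18 in orange at the right of each panel. Upper panels are genes higher in siRpl18 than in siRpl14 and lower panels genes lower in it than in siRpl14 and siRpl23; Pisd lies near 25 FPKM in siRpl18 and near 50 elsewhere in replicates 1 and 2.

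In all, 60 genes were higher in siRpl18 than in each of the 4 other groups (0.492% of those tested) and 67 were lower (0.549%), and 49 and 53 of them had the same signs in all 4 differences of the third libraries. The higher genes with the largest differences also included Pcdh8, a protocadherin of the mesoderm and neural tube, Dglucy, a D-glutamate cyclase, and Atf5, an ATF4-related factor. Atf5 was at 26.8 and 29.6 FPKM in siRpl18, 19.2 and 17.5 in siNT, 20.5 and 18.8 in siRpl14, 20.4 and 18.6 in siRpl23 and 8.11 and 8.09 in siRpl11, although the third siRpl14 library reached 34.8 against 38.3 in siRpl18. The lower genes included Dnmt3b, at 21.7 and 21.2 FPKM in siRpl18 against 29.8 and 29.3 in siNT and 55.7 and 53.8 in siRpl11, Patl1, a factor of mRNA decay, and Acap1, a GTPase-activating protein.

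Lists were counted without a filter here too. Over all 19388 genes, 3.01% were higher and 3.57% lower in siRpl18 than in siRpl14, and 24.2% and 10.2% than in siRpl11. Shares of all genes at an unadjusted p under 0.05 were not counted for these contrasts. Among 40 genes of G2 and mitosis, limma called 13 higher in siRpl18 than in siRpl14 and 0 lower (21 and 0 at an unadjusted p under 0.05), with a median of 0.14 against -0.01 over all genes. In the filtered fit 16 were higher, 15 with quantile normalization and 18 with median-ratio scaling. Against siRpl11, limma called 34 of 40 2-cell-like genes higher in siRpl18 and 0 lower (35 and 0 at an unadjusted p under 0.05), and 16 of 16 p53 targets of growth arrest were higher, or 13 in the filtered fit after quantile normalization. Of 21 formative genes 11 were lower and 6 higher than in siRpl11, with Otx2 at 47.3 and 48.5 FPKM in siRpl18 and 78 and 78.6 in siRpl11.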

How the data were processed

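Messenger RNA of 15 libraries (5 groups of 3) was sequenced, and the authors deposited FPKM per gene in 2 tables. Reads were aligned with STAR and FPKM computed with Cuffnorm on mm9, per the submitters' processing notes; versions, settings, annotation and strand use were not given in the sources used here. Tables normalized separately were tested separately, and 2 columns that match no sample were not used. From these FPKM, log2(FPKM + 1) of the 10 libraries of the first table was fitted by group with limma 3.58.1 (R 4.3.3; empirical Bayes with trend, 5 residual degrees of freedom), and p-values were adjusted by Benjamini-Hochberg over the 12199 genes that reached 1 FPKM in 2 or more siNT or siRpl18 libraries; calls used an adjusted p under 0.05. At the same threshold, 8621 genes had an unadjusted p under 0.05. Lists were counted in a fit without the filter, since 379 genes passed it only through siRpl18. Members, gene lists and contrasts were chosen with earlier results of these data known. The genes named are the 20 largest rises and falls, list members with the largest called changes or well-known members, and up to 10 genes on each side of the contrasts with other knockdowns; genes outside that rule (Snora44, Snora65, Vim, Aars, Ldha, Pgk1 and members of counts of 5 or fewer) were named after their values were seen, and some results are not reported here. The fitting script was tested on simulated data. Alternatives covered the pseudocount, filter, scaling, libraries fitted, a replicate block and leaving out each replicate.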

Additional observations from a re-analysis of the deposited data

How the results depend on the processing

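Counts of called genes for siRpl18 against siNT lay between 5758 (mean of 5 FPKM or more, fewer genes tested) and 9302 (no filter), and between 7391 and 7457 when 1 library was left out; those that rose gave 3486 to 3674 and those that fell 3754 to 3905 in that case. With a mean of 5 FPKM or more, 2850 genes fell. Leaving out 1 library gave 723 to 1683 genes against siRpl14, 65 to 365 against siRpl23 and 5424 to 6498 against siRpl11. Against siRpl23 there were 267 without a filter and 947 with the replicate block; the cause was not tested. Median-ratio scaling made 59.7%, 55.7% and 48.5% of calls higher in siRpl18 than in siRpl14, siRpl23 and siRpl11. Rpl14 in siRpl18 against siNT turned from -0.00, not called, to 0.12 after quantile normalization (limma adjusted p = 0.0217). Of 273 differences of named genes that were called, 259 kept call and sign under each of the 14 alternatives in which they were tested. Same-numbered siRpl18 libraries deviated together with siNT, siRpl11, siRpl14 and siRpl23 at r = 0.05, 0.09, 0.20 and 0.11. These values are low but all positive, and the main fit did not pair samples by number. The replicate block raised the calls in each contrast, from 8251 to 8739 against siNT and from 1733 to 2574 against siRpl14. Against siRpl23 they went from 417 to 947 and against siRpl11 from 6456 to 7109. Whether libraries of the same number shared a batch was not tested.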

Other observations

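Enzymes that write and erase DNA methylation were divided in siRpl18 against siNT, with 2 of 11 higher and 4 lower in the fit without a filter. Uhrf1, which brings the maintenance methyltransferase to replicated DNA, went from 142 and 139 to 92.4 and 89.8 FPKM, and from 162 to 112 in the third libraries (-0.61), while its partner Dnmt1 did not pass (0.03, limma adjusted p = 0.581). Tet2, an enzyme that oxidizes methylcytosine, went from 41.8 and 40.3 to 31.9 and 28.9 FPKM (-0.42), and Tet1 fell too (-0.32, and -0.08 in the third libraries). The de novo methyltransferases went opposite ways, since Dnmt3b fell (-0.44) and Dnmt3a rose (0.28), but the third libraries gave -0.18 for Dnmt3a.

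Heat shock proteins were divided too. The mitochondrial pair Hspd1 and Hspe1 fell (-0.36 and -0.26), as did the Hsp90 cochaperones Fkbp4, Ahsa1 and Stip1 (-0.6, -0.45 and -0.4), whereas the inducible chaperone Hspa1a went from 0.655 and 0.739 to 1.78 and 1.87 FPKM (0.74) and Hspb8, a small heat shock protein, rose (0.61). Hspa1a has the near-identical neighbour Hspa1b, which did not pass (0.13, limma adjusted p = 0.22), so reads could be split between them.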
